A study of Mus musculus with 9 samples.

Results

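The 10 genes described here belong to transforming growth factor beta (TGFβ) signalling and were measured in primary murine microglia exposed to glioma-conditioned medium (GCM). They were chosen by name as the core of the pathway: the ligand gene Tgfb1, the receptor genes Tgfbr1 and Tgfbr2, the Smad genes Smad2, Smad3 and Smad4, the feedback genes Smad7, Ski and Skil, and the target gene Tgfbi. The choice was made with earlier results of these data known, which limits what the counts of called genes can show. All 10 were measured, by 21 of the 28898 probe sets with 1 gene symbol, and they are 10 of the 17097 genes tested. The cells were microglia grown from the cortices of neonatal (P0-P2) C57BL/6J mice, and the labels name no transgene or engineered allele. The 3 replicates of a group came from separate cortical cultures. The arrays fell into groups of 3: microglia kept for 6 h in GCM LN18, microglia kept for 6 h in GCM U87, and control microglia stimulated with nothing. LN18 and U87 (U87-MG) are established human glioblastoma lines, each of which conditioned the microglia culture medium, with its fetal calf serum, before the transfer. Microglia in plastic dishes lack the other cells of the brain, and whether the control cultures received a change of medium is not given in the sources used here. RNA was hybridised to Affymetrix strip arrays of the type MG-430 PM, in 1 colour, and the unit throughout is the log2 signal of a probe set, so that a difference of 1 is a 2-fold difference.

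TGFβ1 is secreted in a latent form and, once activated, binds the type II receptor encoded by Tgfbr2, which then phosphorylates the type I receptor encoded by Tgfbr1. The type I receptor phosphorylates the proteins of Smad2 and Smad3, which join the common partner encoded by Smad4 and enter the nucleus to regulate genes. Smad7 protein is made in response to the signal and blocks the type I receptor, while the proteins of Ski and Skil (SnoN) are co-repressors that sit on Smad complexes, and Skil is itself a Smad target gene. Tgfbi codes for a secreted matrix protein that was named for its induction by TGFβ. In the mouse brain, microglia depend on TGFβ for their mature expression pattern. Arrays measure transcripts only, so receptor activity and the phosphorylation of Smads are outside the measurement.

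The promoter windows of 2 of the genes that rose are shown here, that of the target gene and that of the type I receptor gene, because the pathway acts on promoters through a short Smad-binding motif. Each window runs from 250 bases before to 50 bases after a transcription start in RefSeq on the build GRCm38.p6, and capitals mark the motif CAGAC or, where it lies on the opposite strand, GTCTG. The Tgfbi window is chr13:56609336-56609635 and the Tgfbr1 window is chr4:47352972-47353271, both on the + strand and both printed 5′ to 3′.
Tgfbi: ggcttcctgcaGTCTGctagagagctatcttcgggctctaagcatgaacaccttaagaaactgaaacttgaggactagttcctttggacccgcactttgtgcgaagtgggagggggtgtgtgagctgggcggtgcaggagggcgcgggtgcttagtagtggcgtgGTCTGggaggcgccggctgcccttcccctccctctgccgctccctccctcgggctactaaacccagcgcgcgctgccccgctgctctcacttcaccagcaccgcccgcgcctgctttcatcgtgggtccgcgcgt
Tgfbr1: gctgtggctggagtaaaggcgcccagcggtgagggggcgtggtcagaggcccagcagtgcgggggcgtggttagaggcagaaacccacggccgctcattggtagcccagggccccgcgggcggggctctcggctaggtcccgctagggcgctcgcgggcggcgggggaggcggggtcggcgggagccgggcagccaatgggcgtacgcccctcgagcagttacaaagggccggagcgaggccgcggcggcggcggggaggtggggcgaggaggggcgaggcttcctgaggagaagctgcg
The Tgfbi window held 2 matches, which begin 239 and 85 bases before the start, and the Tgfbr1 window held 0. Of the Tgfbr1 starts, that with 0 matches was the start shown, so the contrast with Tgfbi was set by the choice. Of the 32851 promoter windows of this length in the table, 49.6% held at least 1 match and 16.2% held 2 or more. The table held windows for 6 of the 10 genes. A second start of Tgfbr1 and the start of Tgfbr2 had 1 match each, and the windows of Ski, Smad3 and Tgfb1 had 0. A match describes the letters of the window and is no evidence of binding.

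In GCM LN18, Tgfbi was 5.75-fold higher than in control microglia, Smad7 1.65-fold and Tgfbr1 1.52-fold, and these 3 of the 10 genes passed the test. The other 7 did not pass, among them Skil at 1.91-fold. In GCM U87 the same 3 genes were 3.8-fold, 1.49-fold and 1.38-fold higher, but 0 of the 10 passed, and 5 of 10 had an unadjusted p under 0.05. With the mean of both media against control, Tgfbi, Tgfbr1 and Smad7 passed again. Between the 2 media 0 of the 10 passed.

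The test was the moderated test of limma with the replicate number as a block, adjusted by Benjamini-Hochberg over the 17097 genes, and a gene was called at an adjusted p under 0.05. In GCM LN18 3 of the 10 were called, against 0.877% of all genes, and all 3 were higher, against 0.538% called higher (92 genes, with 58 lower). The count in GCM LN18 was 0 of the 10 without any 1 of the GCM LN18 arrays or control replicate 3, and 1 without control replicate 2. With the mean of both media it was 0 to 2 of the 10 without 1 array. In GCM U87 0.0468% of all genes were called, with the mean of both media 0.813% and between the media 0%. At an unadjusted p under 0.05, 12.2% of all genes stood out in GCM LN18 and 9.12% in GCM U87, against 8 and 5 of the 10. The median log2 fold change of the 10 genes was 0.31 in GCM LN18 and 0.21 in GCM U87, against -0.00367 and -0.0026 over all genes. By size alone, without sign, the medians were 0.33 and 0.21, against 0.07 and 0.06 over all genes. All 10 genes were bright, from percentile 61.7 (Smad7) to 97.0 (Tgfbr1) of mean signal, while the shares and medians over all genes include dim genes. A fit of only the 8548 genes above the median signal called 144 in GCM LN18 and 3 in GCM U87. In that fit 1512 and 995 had an unadjusted p under 0.05 by limma. A fit without the block called 5 of the 10 in GCM LN18 (Skil higher and Smad2 lower were added) 3 in GCM U87 and 5 with the mean of both media, but it called 5.23%, 1.51% and 4.81% of all genes. The 2 comparisons share the 3 control arrays, so the second is no independent repeat of the first. With whole cultures, a change in the share of responding cells and a change in RNA per cell cannot be told apart.

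**Figure D1:**
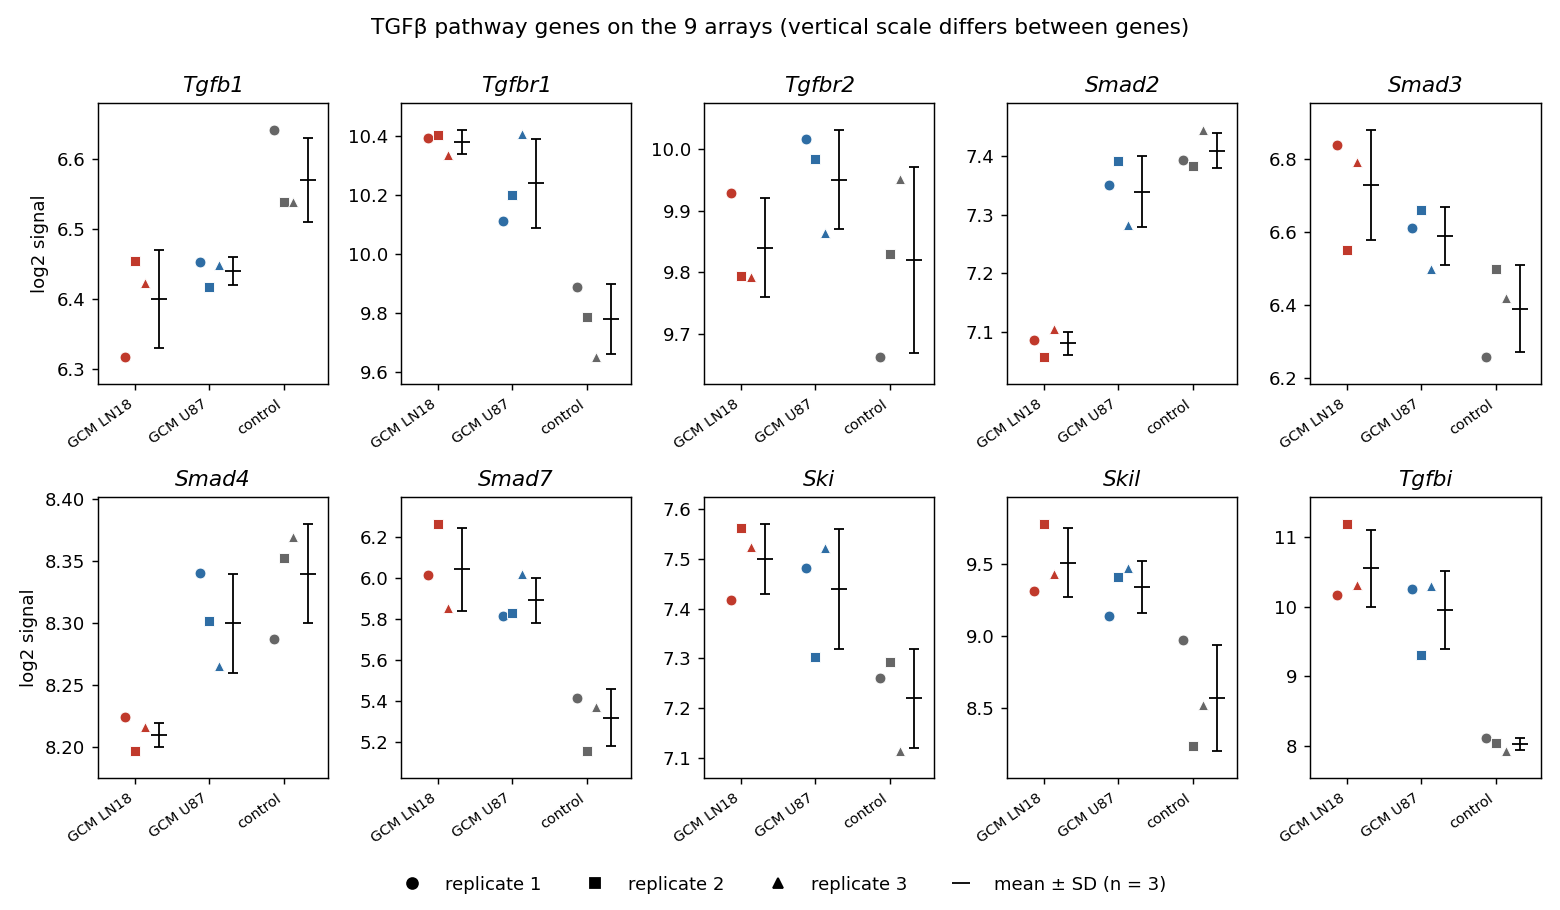
Log2 signal (vertical axis) of the 10 genes on each of the 9 arrays, by group, with circles, squares and triangles for replicates 1, 2 and 3 and a bar for the mean ± SD of 3 arrays. The 6 GCM arrays of Tgfbi lie between 9.30 and 11.18, all above the control arrays, which lie between 7.93 and 8.11.

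In GCM LN18 the 3 arrays lay wholly on one side of the 3 control arrays for 9 of 10 genes, 6 above and 3 below, against 23.9% of all genes. In GCM U87 this held for 7 of 10 genes, 6 above and 1 below, against 19.1% of all genes. For 7 genes all 6 GCM arrays lay on one side of the control arrays, against 9.8% of all genes: Tgfbi, Skil, Smad7, Tgfbr1, Ski and Smad3 above, and Tgfb1 below.

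The target gene Tgfbi (probe set 1448123_PM_s_at) had the widest change of the 10. Its log2 signal was 10.17, 11.18 and 10.31 in GCM LN18, 10.26, 9.30 and 10.30 in GCM U87, and 8.11, 8.05 and 7.93 in control microglia, in the order of replicates 1, 2 and 3. The control arrays had an SD of 0.09, whereas replicate 2 was the highest array of GCM LN18 and the lowest of GCM U87. Replicate means had been made equal before deposit, so these 2 extremes are tied to each other and are not separate observations. The log2 fold change was 2.52 ± 0.33 (SE) in GCM LN18, with a 95% interval of 1.77 to 3.27 and an adjusted p of 0.0237 by limma. In GCM U87 it was 1.92 ± 0.33, with an interval of 1.18 to 2.67 and an adjusted p of 0.128 (0.0258 without the block). Within replicates the difference from control was 2.06, 3.13 and 2.38 in GCM LN18 and 2.15, 1.25 and 2.37 in GCM U87. The GCM LN18 call was lost without GCM LN18 replicate 1 (adjusted p = 0.0717), 2 (0.0859) or 3 (0.0746) or control replicate 3 (0.0631), and with trend and robust estimation (0.0755). Without GCM U87 replicate 2 the GCM U87 value was 2.41, with an adjusted p of 0.0234 by limma. That value exceeds both remaining differences within replicates, 2.15 and 2.37, because the block fit also draws on GCM LN18 replicate 2.

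The second probe set of Tgfbi, 1415871_PM_at, repeated the order of the GCM arrays within each medium. It read 8.46, 9.64 and 8.56 in GCM LN18, 8.51, 7.51 and 8.57 in GCM U87, and 6.13, 5.94 and 5.96 in control microglia. Its log2 fold changes were 2.88 and 2.19 in the 2 media, with adjusted p of 0.025 and 0.15 in a limma fit of all probe sets. Replicate 2 was again the highest of GCM LN18 and the lowest of GCM U87, under the same equal means and in the same RNA.

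Of the receptor genes, Tgfbr1 rose in GCM LN18 and Tgfbr2 did not pass the test in either medium. The type I receptor gene Tgfbr1 (1420895_PM_at) had signals of 10.39, 10.40 and 10.34 in GCM LN18, 10.11, 10.20 and 10.41 in GCM U87, and 9.89, 9.79 and 9.65 in control microglia, with no overlap between either medium and control. Its log2 fold change was 0.60 ± 0.09 in GCM LN18 (interval 0.39 to 0.82, adjusted p = 0.0366 by limma). In GCM U87 it was 0.47 ± 0.09 (interval 0.25 to 0.68, adjusted p = 0.19, and 0.0325 without the block). The GCM LN18 call was lost without GCM LN18 replicate 1 (0.182), 2 (0.228) or 3 (0.133) or control replicate 2 (0.0754) or 3 (0.0795). The 2 other probe sets of Tgfbr1 were dim, with mean signals of 3.04 and 2.86 against 10.13 for the first, where the 25th percentile over all genes was 2.89. Their log2 fold changes in GCM LN18 were 0.33 and 0.01. The mean of the 3 probe sets gave 0.32, with an adjusted p of 0.0816.

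The type II receptor gene Tgfbr2 (1426397_PM_at) had signals of 9.93, 9.79 and 9.79 in GCM LN18, 10.02, 9.98 and 9.86 in GCM U87, and 9.66, 9.83 and 9.95 in control microglia. The 3 groups overlapped, and the differences within replicates had both signs in each medium. The log2 fold change was 0.02 in GCM LN18 (interval -0.18 to 0.23) and 0.14 in GCM U87 (interval -0.07 to 0.35), so a change of the size seen for Tgfbr1 in GCM LN18 lay outside both intervals. The ligand gene Tgfb1 (1420653_PM_at) had signals of 6.32, 6.45 and 6.42 in GCM LN18, 6.45, 6.42 and 6.45 in GCM U87, and 6.64, 6.54 and 6.54 in control microglia. Every GCM array was below every control array, by a small margin. Its log2 fold change was -0.17 ± 0.06 in GCM LN18 (adjusted p = 0.301 by limma) and -0.13 ± 0.06 in GCM U87 (0.59), and neither passed the test.

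None of the 3 signal-carrying Smad genes was called. Smad2 (1420634_PM_a_at), a receptor-activated Smad, came closest: its signals were 7.09, 7.06 and 7.11 in GCM LN18, 7.35, 7.39 and 7.28 in GCM U87, and 7.39, 7.38 and 7.44 in control microglia. The GCM LN18 arrays were all below the other 6 arrays, while GCM U87 overlapped with control. The log2 fold change in GCM LN18 was -0.33 ± 0.06, with an interval of -0.46 to -0.19, and within replicates it was -0.31, -0.33 and -0.34. Its adjusted p was 0.0505 by limma, against 0.00362 without the block, 0.0339 with array weights, 0.0452 among bright genes only and 0.0457 after quantile normalization. In GCM U87 it was -0.07 (interval -0.20 to 0.07). A second probe set of Smad2 gave -0.09 in GCM LN18 (interval -0.26 to 0.08) and 0.03 in GCM U87, so the values of the 2 probe sets differ.

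Smad3 (1454960_PM_at), the other receptor-activated Smad, had signals of 6.84, 6.55 and 6.79 in GCM LN18, 6.61, 6.66 and 6.50 in GCM U87, and 6.26, 6.50 and 6.42 in control microglia. The lowest GCM U87 array and the highest control array were equal at this rounding. Replicate 2 brought the groups close together, with a difference of 0.05 in GCM LN18, against 0.58 and 0.37 in replicates 1 and 3. It differed from control by 0.34 ± 0.10 in GCM LN18 (adjusted p = 0.207 by limma) and 0.20 ± 0.10 in GCM U87 (0.621). Smad4 (1422487_PM_at), the common partner, had the narrowest range, with 8.22, 8.20 and 8.22 in GCM LN18, 8.34, 8.30 and 8.27 in GCM U87, and 8.29, 8.35 and 8.37 in control microglia. Its log2 fold change was -0.12 in GCM LN18 (interval -0.25 to 0.00) and -0.03 in GCM U87 (interval -0.16 to 0.09). The 2 other probe sets of Smad4 both gave -0.08 in GCM LN18, and -0.02 and -0.05 in GCM U87.

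**Figure D2:**
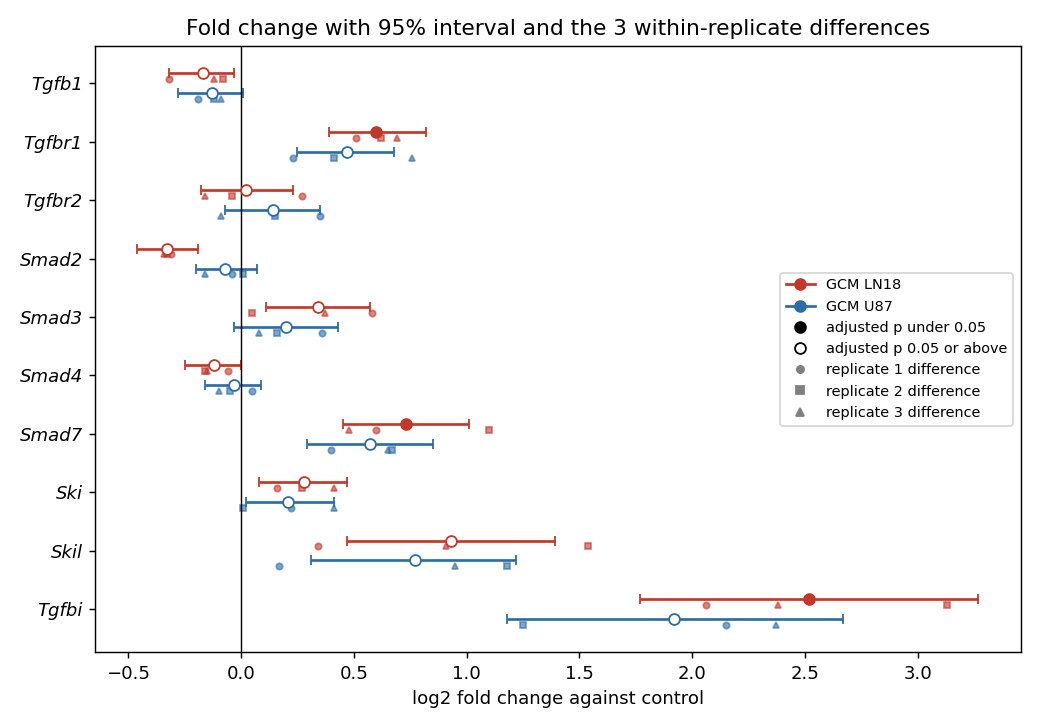
Log2 fold change against control (horizontal axis) of the 10 genes in GCM LN18 and GCM U87, with the 95% interval of the limma fit as bars and the 3 within-replicate differences as small symbols. Filled points passed the test: Tgfbr1 at 0.60, Smad7 at 0.73 and Tgfbi at 2.52, all in GCM LN18.

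The 3 feedback genes had positive differences in all 3 replicates of both media, and 1 of them, Smad7, was called. The inhibitory Smad gene Smad7 (1423389_PM_at) had signals of 6.01, 6.26 and 5.85 in GCM LN18, 5.81, 5.83 and 6.02 in GCM U87, and 5.42, 5.16 and 5.37 in control microglia. No GCM array reached down to the control arrays. Against control, Smad7 was higher by 0.73 ± 0.12 in GCM LN18 (log2, interval 0.45 to 1.01, adjusted p = 0.0446 by limma) and its difference was 0.57 ± 0.12 in GCM U87 (interval 0.29 to 0.85, adjusted p = 0.2, and 0.0442 without the block). The GCM LN18 call stood close to the threshold: it was lost without any 1 of the 9 arrays, with adjusted p between 0.0541 and 0.184. It was also lost in the fit of all probe sets (0.0523), of only the groups compared (0.0985) and after quantile normalization (0.0504).

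Skil (1452214_PM_at), the gene of the co-repressor SnoN, had signals of 9.31, 9.78 and 9.43 in GCM LN18, 9.14, 9.41 and 9.47 in GCM U87, and 8.97, 8.23 and 8.52 in control microglia. Control replicate 1 was the highest of its group, and the difference within replicate 1 was 0.34 in GCM LN18, against 1.54 and 0.91 in replicates 2 and 3. The log2 fold change was 0.93 ± 0.20 in GCM LN18 (interval 0.47 to 1.39, adjusted p = 0.0837 by limma) and 0.77 ± 0.20 in GCM U87 (interval 0.31 to 1.22, adjusted p = 0.302). In GCM LN18 it passed without the block (0.0232), with array weights (0.0329) and without control replicate 1 (1.23, adjusted p = 0.0185). Ski (1429192_PM_at), the related co-repressor, had signals of 7.42, 7.56 and 7.52 in GCM LN18, 7.48, 7.30 and 7.52 in GCM U87, and 7.26, 7.29 and 7.11 in control microglia. Its log2 fold change was 0.28 ± 0.08 in GCM LN18 (adjusted p = 0.213 by limma) and 0.21 ± 0.08 in GCM U87 (0.504). The second probe set of Ski gave 0.33 and 0.18 in the 2 media.

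**Figure D3:**
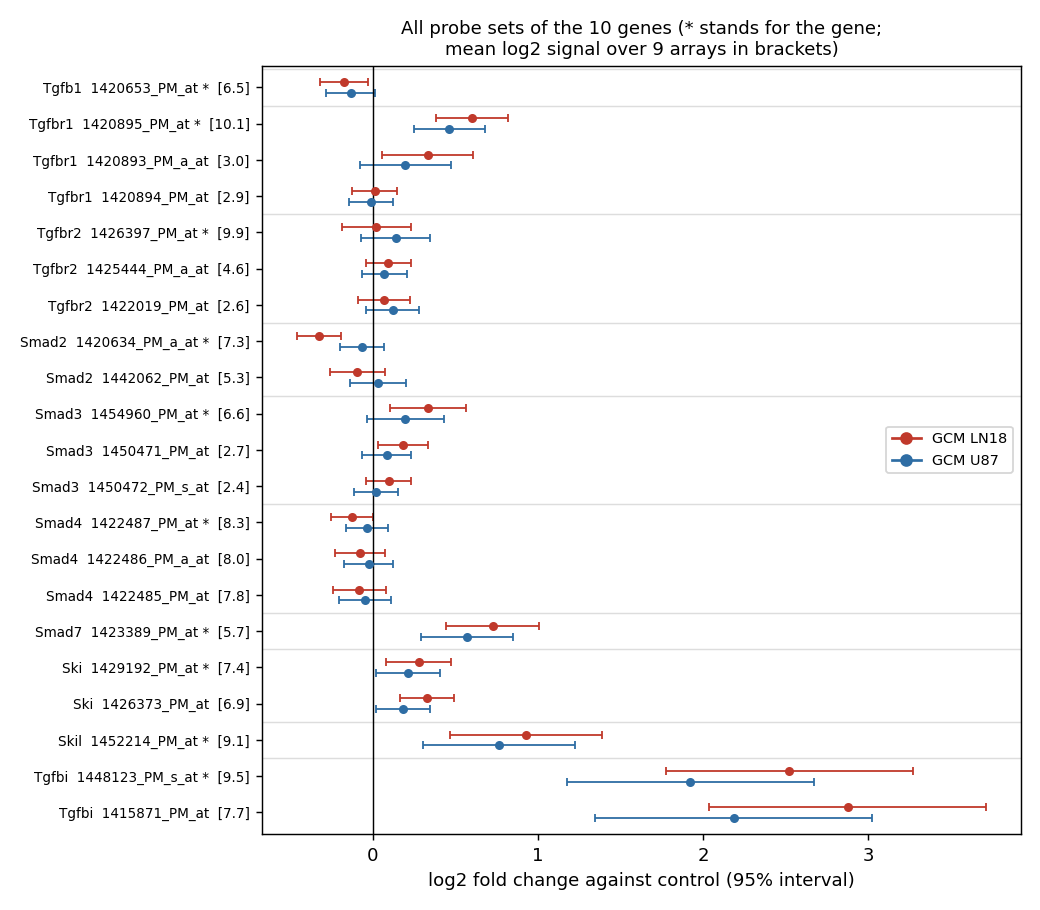
Log2 fold change against control with its 95% interval (horizontal axis) for each of the 21 probe sets of the 10 genes, in GCM LN18 and GCM U87, with the mean log2 signal of the probe set in brackets. The 2 probe sets of Tgfbi lie at 2.52 and 2.88 in GCM LN18, while those of Tgfbr1 with mean signals of 3.04 and 2.86 lie at 0.33 and 0.01.

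GCM LN18 and GCM U87 were also compared directly. Smad2 was lower in GCM LN18 than in GCM U87 by a log2 difference of -0.26 (interval -0.39 to -0.13), in 3 of 3 replicates, with an unadjusted p of 0.00186 and an adjusted p of 0.917 by limma. It was the 1 gene of the 10 with an unadjusted p under 0.05, where 5.06% of all genes had one, and 0 of the 17097 genes was called. Tgfbi differed by 0.60 between GCM LN18 and GCM U87 (interval -0.15 to 1.35). This difference was 1.88 in replicate 2, against -0.09 and 0.01 in replicates 1 and 3. The differences of the feedback genes were 0.16 for Smad7 (interval -0.12 to 0.43), 0.17 for Skil (interval -0.29 to 0.62) and 0.07 for Ski (interval -0.13 to 0.26). For Tgfbr1 it was 0.14 (interval -0.08 to 0.35) and for Tgfbr2 -0.12 (interval -0.32 to 0.09). Intervals of this width do not show that the media act alike on these genes.

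Further lists of pathway genes, 5 in all, were counted beside the 10. Of 12 listed other ligands and receptors, 10 were measured and 0 passed in either medium (limma, adjusted p under 0.05), while 1 in GCM LN18 and 0 in GCM U87 had an unadjusted p under 0.05, against 12.2% and 9.12% of all genes. That gene was Acvrl1, which codes for the type I receptor ALK1. Its signals were 6.74, 6.67 and 6.66 in GCM LN18, 6.18, 6.07 and 6.42 in GCM U87, and 6.22, 6.40 and 6.06 in control microglia. The GCM LN18 arrays lay above the other 6, and the log2 fold change was 0.46 (adjusted p = 0.119, and 0.0314 without the block), against -0.01 in GCM U87. The co-receptor gene Eng had log2 fold changes of -0.10 and -0.06, and the activin receptor gene Acvr2b 0.04 and 0.06.

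Of 19 listed Smad regulators, 17 were measured and 0 passed, with 5 and 1 at an unadjusted p under 0.05 in GCM LN18 and GCM U87, against 12.2% and 9.12% of all genes. Pmepa1 and Usp11 were listed but not measured here, so the count does not cover them. The study names Pmepa1 among the genes found by its global expression analysis of these microglia. Bambi, which codes for a decoy receptor, had log2 fold changes of 0.55 in GCM LN18 (adjusted p = 0.122 by limma, and 0.0346 without the block) and 0.43 in GCM U87 (0.396). Smad6, the other inhibitory Smad gene, read 5.07, 6.08 and 5.34 in GCM LN18, 5.12, 6.21 and 5.42 in GCM U87, and 5.78, 3.68 and 5.20 in control microglia. One low control array set its log2 fold changes of 0.61 and 0.70, which were -0.29 and -0.21 without control replicate 2. Wwp1, which codes for a ubiquitin ligase, had values of -0.25 and -0.17.

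Of 13 listed co-repressors, co-activators and partners, 11 were measured and 0 passed, with 2 at an unadjusted p under 0.05 in each medium, against 12.2% and 9.12% of all genes in GCM LN18 and GCM U87. Runx3, a transcription factor that partners Smads, had signals of 5.10, 5.03 and 5.29 in GCM LN18, 5.21, 4.81 and 4.98 in GCM U87, and 4.32, 4.79 and 4.36 in control microglia. Its log2 fold change was 0.65 in GCM LN18 (adjusted p = 0.102 by limma, and 0.0282 without the block) and 0.51 in GCM U87 (0.37). The AP-1 gene Junb had 0.25 and 0.21, and the co-activator gene Crebbp 0.24 and 0.29. The list medians were 0.01 in GCM LN18 for both this list and the Smad regulators.

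Of 20 listed TGFβ target genes of many cell types, 18 were measured and 4 rose in GCM LN18, against 0.538% of all genes called higher, and 8 had an unadjusted p under 0.05, against 12.2%. In GCM U87 0 passed, against 0.0468%, while 7 had an unadjusted p under 0.05, against 9.12%, and 3 passed without the block, against 1.51%. The 4 were Ets1, a transcription factor gene, at 1.05 (adjusted p = 0.00441 by limma), Spsb1, the gene of a ubiquitin ligase adaptor, at 0.91 (0.0117), Klf10, a TGFβ early response gene, at 0.69 (0.0269), and Fn1, the fibronectin gene, at 0.67 (0.0223). In GCM U87 they had 0.63, 0.68, 0.38 and 0.57, with adjusted p of 0.062, 0.0748, 0.278 and 0.0838. Ets1 read 5.01, 4.85 and 4.91 in GCM LN18, 4.45, 4.45 and 4.59 in GCM U87, and 3.83, 3.99 and 3.79 in control microglia. Ets1 passed without each of the 9 arrays. The other 3 were lost without GCM LN18 replicate 1 or 2, Klf10 and Fn1 also without GCM LN18 replicate 3, Klf10 without GCM U87 replicate 1 and Fn1 without control replicate 3, with adjusted p up to 0.172. Klf10 was also lost in the fit of only the groups compared (0.0811) and Spsb1 with the mean of probe sets (0.0691), where its value was 0.27. Ets1 passed with the mean of probe sets too, but at 0.41. Tgm2, Cdkn2b, Gadd45b and Id3 are named here after their values were seen. Tgm2, the transglutaminase gene, was 1.68 in GCM LN18 (adjusted p = 0.0533, and 0.0116 without the block) and 0.94 in GCM U87 (0.416). Cdkn2b, a cell cycle inhibitor gene known to be induced by TGFβ, was -0.68 in GCM LN18 (adjusted p = 0.0911, and 0.0252 without the block) and -0.46 in GCM U87 (0.418). Gadd45b, a stress response gene, was -0.31 and -0.32 in the 2 media (0.35 and 0.494). Id3 was 1.15 in GCM LN18 and 1.19 in GCM U87, with adjusted p of 0.66 and 0.719 by limma. Its control replicate 2 read 4.97, against 7.99 and 7.72 in control replicates 1 and 3, and the same control array was the low one of Smad6. The list median was 0.06 in each medium, with values on both sides of 0, and 6 of the 18 had a mean signal below the median of all genes, such as Col1a1 (2.23) and Ccn2 (2.30).

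Of 20 listed genes that depend on TGFβ in mouse microglia, 18 were measured, and 3 rose and 1 fell in GCM LN18, against 0.538% and 0.339% of all genes. In GCM U87 2 rose, against 0.0468% of all genes called in either direction. Olfml3, the gene of a secreted olfactomedin-like protein, was higher by 1.70 (adjusted p = 0.00441 by limma), Cx3cr1, the fractalkine receptor gene, by 0.97 (0.00827) and Tmem119, a microglial surface marker gene, by 0.91 (0.039). Gas6, which codes for a ligand of the TAM receptors, fell by 0.36 (0.0412). In GCM U87, Olfml3 at 1.48 (0.0168) and Cx3cr1 at 0.78 (0.0499) passed, while Tmem119 had 0.30 and Gas6 -0.28. The list medians were 0.16 in GCM LN18 and 0.09 in GCM U87, and 13 of the 18 were above 0 in each. At an unadjusted p under 0.05 by limma there were 9 and 8 of the 18, against 12.2% and 9.12% of all genes. Sall1 (-0.12 and -0.24), P2ry13 (-0.11 and -0.22) and Trem2 (0.01 and 0.05) are named here after their values were seen. Olfml3 read 8.99, 9.30 and 9.06 in GCM LN18, 8.79, 8.94 and 8.94 in GCM U87, and 7.64, 7.18 and 7.42 in control microglia, with both media clear of control on every array. In GCM LN18 Olfml3 passed without each of the 9 arrays, Cx3cr1 was lost without GCM LN18 replicate 2 (adjusted p = 0.0859), Tmem119 without 7 of the arrays and Gas6 without 8. In GCM U87 Olfml3 was lost without any GCM U87 array or control replicate 3, and Cx3cr1 without 7 of the arrays, with adjusted p up to 0.258 and 0.36. In the fit of only the groups compared Gas6 (0.0967) and Tmem119 (0.0677) were lost in GCM LN18, and Olfml3 (0.122) and Cx3cr1 (0.191) in GCM U87. Gas6 was also lost with the mean of probe sets, where its value was -0.17 (adjusted p = 0.23), and with all probe sets fitted (0.0503). Cx3cr1 in GCM U87 was also lost among bright genes (0.0614), after quantile normalization (0.0572) and with all probe sets fitted (0.0556). These lists were chosen with earlier results known, and nothing particular to them is read from the counts.

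**Figure D4:**
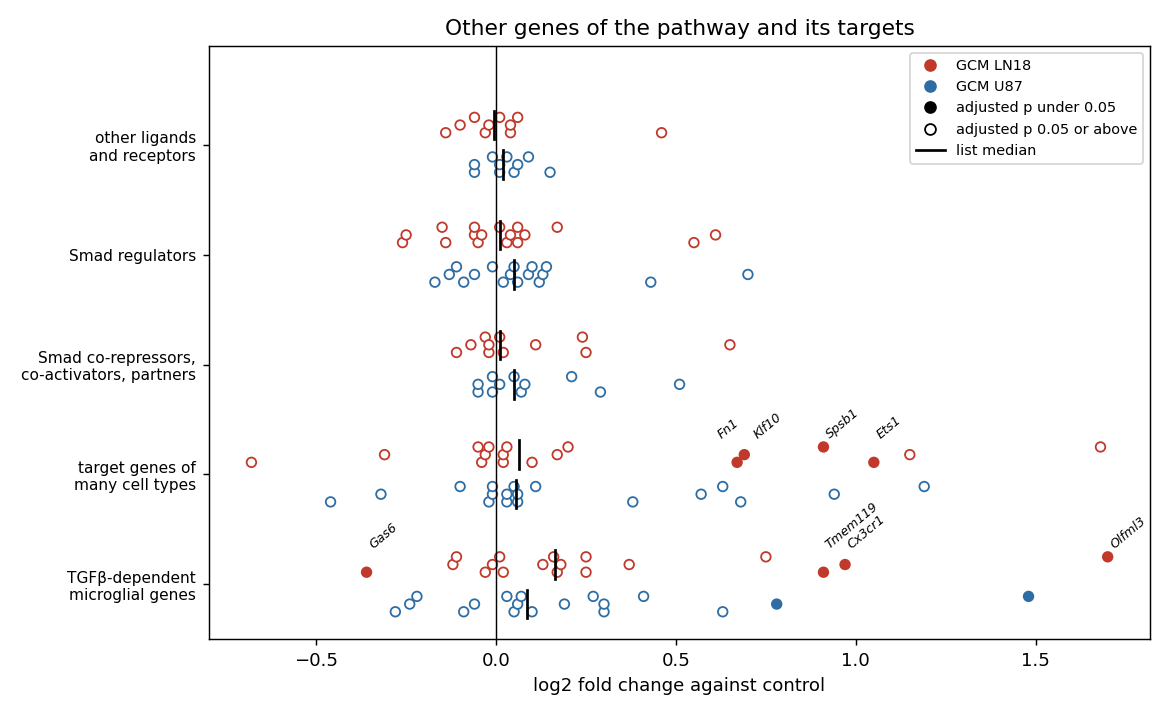
Log2 fold change against control (horizontal axis) of each measured gene of the 5 further lists in GCM LN18 and GCM U87, with filled points for genes that passed the test and a bar for the list median. Genes that passed lie in the 2 lists of target genes, from -0.36 for Gas6 to 1.70 for Olfml3.

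The cells were checked against markers. Of 10 listed microglial markers, 9 were measured, with mean signals from 3.65 (P2ry12) to 11.31 (C1qa), where the median over all genes was 4.34. P2ry12 and Tmem119 (4.28) lay below that median. In GCM LN18 2 of the 9 were called higher, against 0.538% of all genes. In GCM U87 1 was called higher, against 0.0468% of all genes called in either direction. The log2 of the summed linear signal of the 9 was 13.37 to 13.42 in GCM LN18, 13.30 to 13.38 in GCM U87 and 13.09 to 13.17 in control microglia. The sum moved with the group as Tgfbi did, and its part in the values above was not tested. Log2 fold changes of the 9 in GCM LN18 ran from -0.04 (Ptprc) to 0.97 (Cx3cr1), with a median of 0.33. Cx3cr1, P2ry12, Tmem119, Csf1r, Trem2 and C1qa also belong to the TGFβ-dependent list, so the sum is no independent measure of microglial content. Of the 6 fibroblast markers, 0 were called and all had mean signals between 2.14 and 3.15. Their summed log2 signal was 5.24 to 5.28 in GCM LN18, 5.20 to 5.27 in GCM U87 and 5.28 to 5.32 in control microglia. The 8 astrocyte, 6 oligodendrocyte-lineage, 6 neuronal, 6 endothelial and 6 border macrophage markers also had 0 calls by limma with the block in either medium. At an unadjusted p under 0.05 there were 2 border macrophage markers in GCM LN18, against 12.2% of all genes. In GCM U87 there were 2 border macrophage markers and 1 each of the oligodendrocyte-lineage, neuronal and endothelial lists, against 9.12% of all genes. Among endothelial markers, Flt1 (mean signal 6.83) had log2 fold changes of 0.26 in GCM LN18 and 0.36 in GCM U87. Kdr (5.25) had 0.05 and -0.01, and the others had mean signals from 2.59 to 3.27. The summed log2 signal of the endothelial markers, in which Flt1 was the brightest, was 7.48 to 7.65 in GCM LN18, 7.42 to 7.79 in GCM U87 and 7.22 to 7.46 in control microglia, so that GCM LN18 lay above control, and its part in the values above was not tested. That of border macrophage markers was 10.15 to 10.25, 10.11 to 10.20 and 10.16 to 10.21, that of astrocytes 6.39 to 6.47, 6.42 to 6.47 and 6.43 to 6.57, that of the oligodendrocyte lineage 6.85 to 6.90, 6.75 to 6.90 and 6.82 to 6.93 and that of neurons 5.57 to 5.61, 5.56 to 5.59 and 5.56 to 5.63 in GCM LN18, GCM U87 and control microglia. The 2 border macrophage markers at an unadjusted p under 0.05 went opposite ways, Mrc1 at -0.25 and -0.27 and Pf4 at 0.27 and 0.22 in GCM LN18 and GCM U87. Among border macrophage markers, Mrc1 (9.07) and Pf4 (9.17) were bright and Lyve1 (2.32) was not.

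The genes whose pattern was most like that of 3 of the 10 were also listed, by Pearson correlation over the 9 arrays. Closest to Tgfbi were Ntpcr (0.989), Ppp2r3c (0.987) and Gstp3 (0.987). Closest to Skil were M6pr (0.987), Cd207 (0.986) and Ccr3 (0.984), and closest to Smad7 were 2510009E07Rik (0.985), Zfp982 (0.983) and Slc7a2 (0.977). The sizes differed: Ntpcr was higher by 0.80 in GCM LN18 and Ppp2r3c by 0.16, against 2.52 for Tgfbi. These values describe the 9 arrays, which share 3 groups and equal replicate means.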

How the data were processed

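The deposited table gives log2 signals for 45141 probe sets on 9 arrays (Affymetrix MG-430 PM), with values of 1.56 to 12.88. Array medians of 3.39 to 3.41 show that the authors normalized them. The submitters' notes name limma. The study's methods name RMA for the public data sets it compared, and the legend for these arrays refers to the methods in general, so whether RMA was used here is not stated directly. The replicate numbers have equal means over their 3 arrays, for every probe set and within 1e-06, so replicate means had been made equal before deposit. Any spread shared by same-numbered arrays is therefore missing from the SD of a group.

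Groups came from the sample labels. The 104 control probe sets, 551 with several symbols and 15588 unnamed here were left out, and 28689 of the 28898 others matched a current symbol. Each gene took the probe set of highest mean signal, for 17097 genes. limma 3.58.1 in R 4.3.3 fitted all 9 arrays with group and replicate number as a block, which leaves 4 residual degrees of freedom (6 without the block). The equal means call for the block. The labels do not say that a number marks 1 culture in all groups. Deviations of same-numbered arrays from their group means correlated between -0.72 and -0.0591, but equal replicate means force negative values, so this check is void. Arrays have no read depth, and 3 per group limit the precision. On simulated data with equal replicate means (20 simulations of GCM LN18 against control, 17097 genes), changes of 2-fold were recovered with the block in 99.4% and changes of 1.41-fold in 91.7% of the simulated cases, with 5.75% false calls. Without the block 27.9% of calls were false. The changes were put into genes drawn at random, so the rates do not hold for genes of wider spread. The noise was normal, with variances that limma had already drawn together, and GCM U87 was given no change. Spread was thus more even than in the real arrays, and the recovery rates may be too high for them. Skil, at 1.91-fold in GCM LN18 with an SE of 0.20 (log2), was not called.

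Named genes were the 10 genes with all their probe sets, each further listed gene that passed in either medium (where fewer than 3 passed, also the 3 with the largest mean change), and the 3 genes most like Tgfbi, Skil and Smad7. Members, lists and markers were chosen with earlier results of these data known, and the alternatives for the further lists were added after seeing the data. Alternatives were the replicate block, empirical Bayes settings, the probe set rule, all probe sets fitted together, bright genes only, quantile normalization, median centring, array weights, only the groups compared, and each array left out in turn. A listed gene without a probe set of 1 symbol was not analysed here.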

Additional observations from a re-analysis of the deposited data

How the results depend on the processing

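Limits: 3 arrays per group, with replicate means made equal before deposit, leave few degrees of freedom, and calls near the threshold moved with single arrays. Values of the 10 genes under 710 alternatives kept direction and side of the threshold in 641, lost the call in 47, gained it in 14 and changed sign in 8. Of the further lists' named genes, 608 alternatives gave 536, 48, 12 and 12. Among the 10 genes only Tgfbi, Tgfbr1 and Smad7 had a call to lose, in GCM LN18 and with the mean of both media. All 47 losses were theirs, and Smad7 in GCM LN18 was lost in 9 of 9 fits without 1 array. Causes were not tested, except that leaving out arrays or groups lowers the number of samples.

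Without the replicate block, 894 genes were called in GCM LN18, 259 in GCM U87, 823 with the mean of both media and 1 between the media (against 150, 8, 139 and 0 with it), and 5, 3 and 5 of the 10 genes in the first 3 comparisons (against 3, 0 and 3 with it). The block changed no other count of called members. With array weights 265 genes and 5 of the 10 were called in GCM LN18, and 4 genes in GCM U87. The fit of only the groups compared called 89 genes in GCM LN18 and 0 in GCM U87, and gives no value for the mean of both media. In GCM U87, 3 genes were called among bright genes, 21 with trend and robust estimation, 5 with the mean of probe sets and 3 after quantile normalization. Leaving out each array in turn gave 3 to 179 genes in GCM LN18, 0 to 10 in GCM U87, 10 to 154 with the mean of both and 0 to 0 between the media. In GCM LN18 the count was 6, 3 and 19 genes without GCM LN18 replicates 1, 2 and 3, 69 and 98 without GCM U87 replicates 1 and 3 and 58 without control replicate 3. In GCM U87 it was 0 without GCM U87 replicate 1 or 3. For the 10 genes leaving out arrays gave 0 to 3, 0 to 1, 0 to 2 and 0 to 0.

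The values that changed sign were small or rested on 1 array. Leaving out each array in turn, the differences between GCM LN18 and GCM U87 lay between -0.03 and 0.13 for Ski (negative without GCM U87 replicate 2), -0.04 and 0.31 for Skil, -0.01 and 0.30 for Smad7 (both negative without GCM LN18 replicate 2), and -0.08 and 0.02 for Tgfb1 (positive without GCM LN18 replicate 1). Tgfbr2 lay between -0.09 and 0.13 in GCM LN18 and between -0.03 and 0.18 with the mean of both media, both lowest without control replicate 1, and was -0.02 in GCM LN18 with array weights. Among the further genes, in GCM LN18 and then GCM U87, Smad6 lay between -0.29 and 1.28 and between -0.21 and 1.37, Acvr2b between -0.04 and 0.09 and between -0.01 and 0.10, and Eng between -0.17 and 0.02 and between -0.13 and 0.02. Acvrl1 in GCM U87 lay between -0.15 and 0.12, and was 0.004 with array weights and 0.06 with the mean of probe sets.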
